A study of Homo sapiens with 9 samples.

Results

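The genes described are 40 that serve ribosome biogenesis, out of 31589 genes listed in the deposited tables. They comprise the 3 MYC family genes and 37 genes of the nucleolus, and were chosen by symbol from a list of nucleolar, rRNA-processing and MYC genes. They were measured by bulk RNA sequencing of poly-A RNA in human spinal cord organoids (SCOs), 3-dimensional cultures of the developing neural tube grown from the WTC induced pluripotent stem cell line. There were 9 libraries, 3 from SCOs given vehicle (labelled FGF), 3 from SCOs given VPA (valproic acid, an inhibitor of histone deacetylases) and 3 from SCOs given VPA+Rapamycin (Rapamycin inhibits mTOR, a kinase that promotes cell growth). The genotype is given as WT for all of them, and the labels give an exposure of 96 h. The text of the study gives more than 1 length of exposure. No group received Rapamycin without VPA, so the effect of Rapamycin alone was not measured. The cells carried a reporter at SOX10, and the study sequenced organoids of 3 edited clones of the line, some with small deletions or insertions in the other SOX10 allele. Organoids were pooled for RNA. The labels do not tie a replicate number to a clone, so p-values measure the spread between these samples, which includes any difference between clones.

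Ribosomes are built in the nucleolus. RNA polymerase I transcribes a long precursor rRNA, small nucleolar RNA-protein complexes (snoRNPs) guide its chemical modification, and large sets of assembly factors fold and cut it into the rRNAs of the small and large subunits. MYC, a transcription factor that binds the E-box CACGTG with its partner MAX, is known as an activator of many of these genes, and MYCN and MYCL are its paralogs of neural and other embryonic tissues. In proliferating neural progenitors the nucleolus is large, and output of ribosomes is high.

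RefSeq promoter windows, 250 bases before to 50 after a start site on GRCh38.p14, matched 33 of the 40 members. Those of MYC, BOP1, RRS1, NOLC1, TCOF1, NOP58 and RRP12 had no match. CACGTG, which reads the same on both strands, was present in the windows of 14 of the 33 matched members (42.4%). It was present in 7.26% of all 35116 promoter windows, and in 11.7% of the 13191 protein-coding symbols of the tables that had a window. The following 30-base stretches are from the 7 members with the motif that were higher with VPA, and from GNL3, the member that was lower. The E-box is in capitals, and each stretch is written 5′ to 3′ on the strand of the gene.
FBL (chr19:39846356-39846385, minus strand): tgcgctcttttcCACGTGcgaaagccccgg
NOP10 (chr15:34343130-34343159, minus strand): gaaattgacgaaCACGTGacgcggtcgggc
PES1 (chr22:30591880-30591909, minus strand): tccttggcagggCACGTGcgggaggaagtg
NOP14 (chr4:2963374-2963403, minus strand): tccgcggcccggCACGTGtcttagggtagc
RRP9 (chr3:51941892-51941921, minus strand): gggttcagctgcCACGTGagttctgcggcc
UTP20 (chr12:101280083-101280112, plus strand): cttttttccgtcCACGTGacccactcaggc
DDX21 (chr10:68956604-68956633, plus strand): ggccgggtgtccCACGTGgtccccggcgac
GNL3 (chr3:52686026-52686055, plus strand): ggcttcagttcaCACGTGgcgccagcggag

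The motif lay close to the start site in nearly every case. Of 15 motifs in the member windows, 14 had their centre within 40 bases of the start, 93.3%, against 29.1% of the 2821 motifs in all promoter windows. The exception was a second motif of NOP10, 167 bases upstream. Of the 14 members with the motif 7 were higher and 1 was lower with VPA, and of the 19 matched members without it 6 were higher and 0 were lower by edgeR. MYC, BOP1, RRS1, NOLC1 and TCOF1, also higher with VPA, had no matched window and are in neither class, as are NOP58 and RRP12, which were not called. Among all protein-coding genes tested that had a window, 21.0% of the 1379 with the motif and 18.1% of the 9770 without it were higher. The median log2 fold change was 0.34 for members with the motif and 0.18 for members without it, against 0.05 and 0.02 for those protein-coding genes. These matches are descriptions of sequence, and binding was not measured.

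Library totals were 15290299 to 17417338 counts. Levels are given as normalized counts, that is, counts scaled by TMM factors to a common depth over the 9 libraries. Levels of genes are compared with each other per kilobase of gene length, as CPM per kb, except where a share or ratio of counts is named. All 40 members passed the filter on low counts in each comparison. Neural progenitor markers were high in every library (SOX2, 4175 to 4883 normalized counts; PAX6, 4652 to 5365), as the tissue label implies. Endothelial and blood markers summed to 3.50 to 5.13 CPM as group means. A gene was called at an adjusted p of at most 0.05 in edgeR's quasi-likelihood test, with Benjamini-Hochberg adjustment over all genes tested. In bulk samples, fewer cells of a type and less RNA per cell cannot be told apart.

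With VPA, 18 of the 40 members were higher (45.0%) and 1 was lower. Over all 17360 genes tested, 16.4% were higher and 15.7% were lower. The median log2 fold change of the members was 0.28, a fold of 1.22, and that of all genes was -0.003. Positive estimates were found for 36 members. Among well-expressed protein-coding genes (a mean of at least 100 normalized counts), 18.1% were higher and 17.5% were lower. The count of members higher with VPA fell to 10 without vehicle replicate 2, to 8 without VPA replicate 1 or VPA replicate 3, and to 5 without VPA replicate 2. All genes called higher became fewer too, from 2840 of 17360 to 1968 of 17961 without vehicle replicate 2. They numbered 1902 of 17882 without VPA replicate 1, 1831 of 17843 without VPA replicate 3 and 1791 of 17972 without VPA replicate 2. The median of the members stayed between 0.26 and 0.32 over all libraries left out. MYC, NPM3, BOP1, NOP10, RRS1 and the lower GNL3 were called in each of 14 alternatives. The other 13 calls were each lost in at least 1 of them: those of POLR1A, PES1, NOP14, TCOF1, FBL, NHP2, NCL and PPAN without any 1 of the VPA libraries, that of DDX21 without vehicle replicate 2, VPA replicate 1 or VPA replicate 2, and that of RRP9 without vehicle replicate 2, vehicle replicate 3, VPA replicate 2 or VPA replicate 3.

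When Rapamycin was added to VPA, 1 of the 40 members was lower and 0 were higher than with VPA. Of all 17317 genes tested, 3.73% were lower and 3.01% were higher. DESeq2 called 0 members higher and 4 lower, with 691 of 15234 genes lower. Without a filter on low counts edgeR called 5 members lower, with 923 of 29566 genes lower. At an unadjusted p under 0.05 edgeR had 1 member higher and 9 lower, a threshold that at least 3642 of the 17317 genes passed. The changes were small: the median log2 fold change was -0.13, and 34 of 40 estimates were negative. Without VPA replicate 1, VPA replicate 2, VPA replicate 3 or VPA+Rapamycin replicate 3, 0 members were lower by edgeR. In the same order 355 of 17857, 297 of 17890, 429 of 17817 and 346 of 17833 of all genes were lower.

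Between VPA+Rapamycin and vehicle, 6 members were higher and 1 was lower. Of the 17383 genes tested, 9.81% were higher and 9.22% were lower. The median log2 fold change was 0.21. The number higher was 10 with the replicate number as a block, 11 without vehicle replicate 1, 3 without vehicle replicate 3, and 2 without vehicle replicate 2 or any of the VPA+Rapamycin libraries. Of all genes, 2104 of 17383, 2204 of 17924, 2087 of 17950 and 883 of 18016 were higher in the same order, and 761 to 862 without a VPA+Rapamycin library. Without vehicle replicate 3 the share of members was below that of all genes, and in the fits with 2 members it was close to it. BOP1, NOP10 and GNL3 were called in all 14 alternatives, and the calls of NPM3, RRS1 and UBTF were lost without vehicle replicate 2, vehicle replicate 3 or any 1 of the VPA+Rapamycin libraries. The 3 comparisons share libraries and are not independent of each other.

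**Figure D1:**
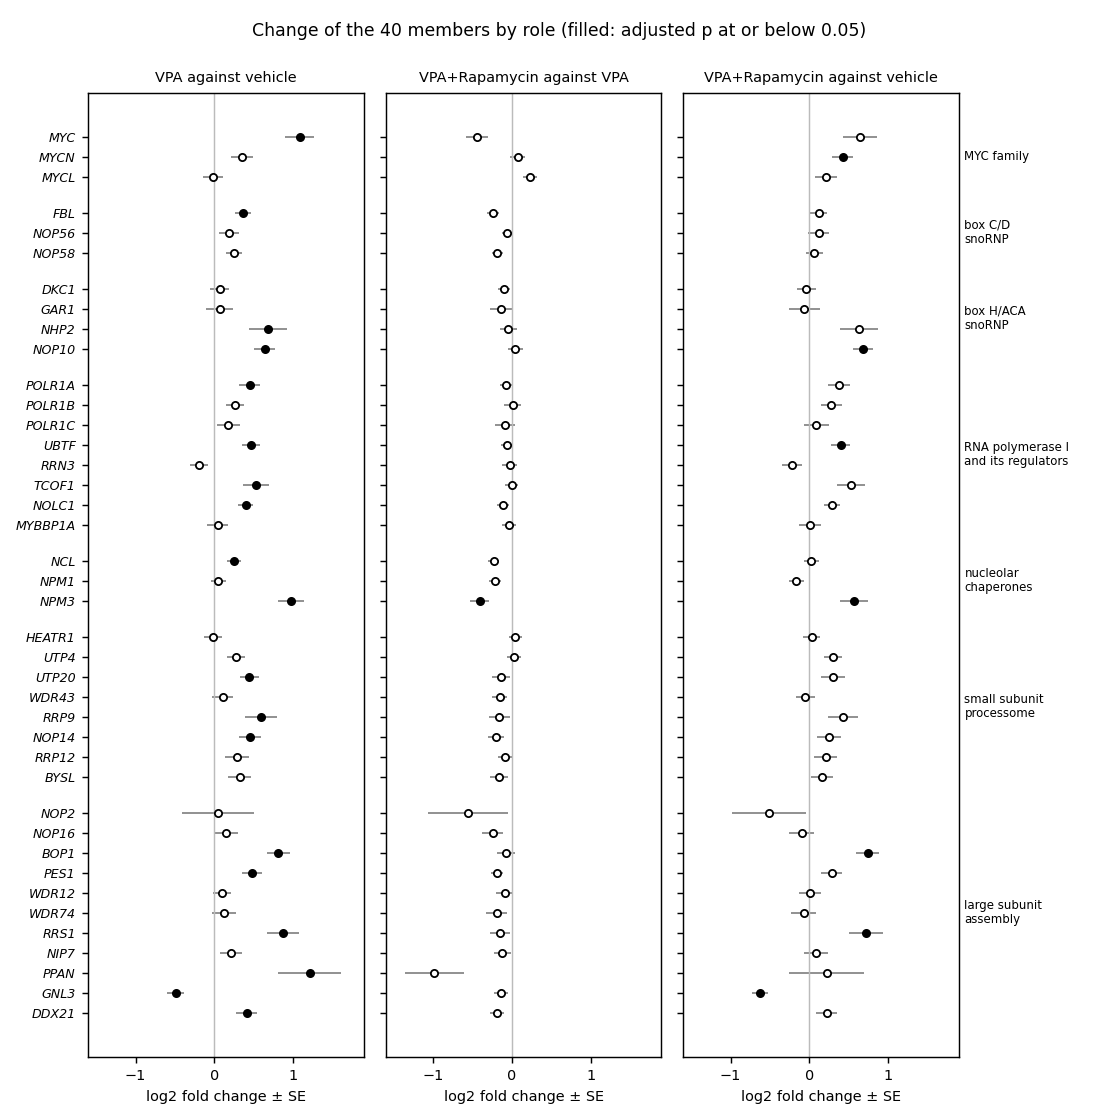
Log2 fold change (points) with its standard error (bars) for the 40 members in blocks by role, one panel for each comparison. Filled points had an adjusted p of at most 0.05: 18 higher and 1 lower with VPA against vehicle, 1 lower with VPA+Rapamycin against VPA, and 6 higher and 1 lower with VPA+Rapamycin against vehicle.

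MYC, which sits upstream of growth genes, was measured at 281, 176 and 198 normalized counts in the vehicle libraries. It was at 439, 431 and 534 with VPA, and at 428, 320.2 and 285 with VPA+Rapamycin. The VPA libraries stood above all others, and the VPA+Rapamycin libraries lay between them and the vehicle libraries without overlapping either. The log2 fold change was 1.09 ± 0.19 (SE) with VPA against vehicle (edgeR adjusted p = 0.00144), a fold of 2.12, and it was called whichever library was left out. With VPA+Rapamycin against VPA the estimate was -0.44 ± 0.14, with an edgeR adjusted p of 0.0652, and against vehicle it was 0.65 ± 0.21 with an adjusted p of 0.0552. With the replicate number as a block both were called (adjusted p = 0.0255 and 0.00922). So they were without a filter on low counts (0.00833 and 0.0125), and the change against vehicle was called too with DESeq2, upper-quartile normalization and the single fit of all 9 libraries. Leaving out VPA+Rapamycin replicate 1 gave -0.63 against VPA (adjusted p = 0.0075), and leaving out vehicle replicate 1 gave 0.87 against vehicle (adjusted p = 0.0097). Over the alternatives the adjusted p ran from 0.0075 to 0.324 against VPA, and from 0.00922 to 0.229 against vehicle.

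MYCN, the paralog known from neural progenitors and neuroblastoma, was at 937, 762 and 715 normalized counts with vehicle, at 1148, 1049 and 899.9 with VPA, and at 978, 1097 and 1182 with VPA+Rapamycin. Its levels with VPA+Rapamycin were above all vehicle libraries, and its levels with VPA overlapped both other groups. It was higher with VPA+Rapamycin than with vehicle, by 0.42 ± 0.13 on the log2 scale (edgeR adjusted p = 0.0476). That call was lost without any 1 of the VPA+Rapamycin libraries, without vehicle replicate 2, without vehicle replicate 3 and with protein-coding genes alone. With VPA against vehicle the estimate was 0.35 ± 0.14 (adjusted p = 0.0734). This change was called in 3 of 14 alternatives: without a filter on low counts, in the single fit of all 9 libraries and without vehicle replicate 1.

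MYCL, the third paralog, was at 2332, 2019 and 1645 normalized counts with vehicle, at 1867, 1981 and 2095 with VPA, and at 2315, 2618 and 2045 with VPA+Rapamycin. The groups overlapped in all 3 comparisons, and no test was passed. Per kilobase MYC was the lowest of the family in every group, at 4.41 ± 1.12 CPM per kb with vehicle, 9.44 ± 1.16 with VPA and 6.95 ± 1.5 with VPA+Rapamycin (SD, n = 3). MYCN was at 18.7 ± 2.73, 24.0 ± 2.91 and 25.3 ± 2.38 CPM per kb in the same order. MYCL was at 23.9 ± 4.11, 23.7 ± 1.37 and 27.8 ± 3.42 CPM per kb. Within libraries MYCL was above MYCN per kb in every vehicle library, and their order varied between libraries in each of the other groups. The share of MYC in the summed family level per kb was 7.82% to 10.3% with vehicle, 15.3% to 19.0% with VPA and 9.97% to 14.6% with VPA+Rapamycin.

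**Figure D2:**
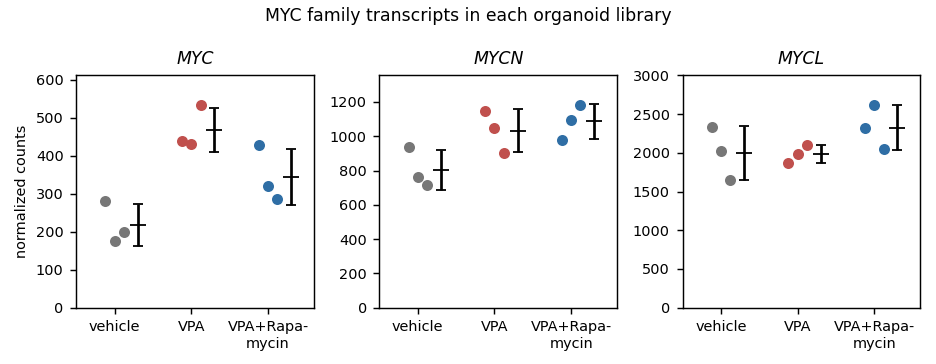
Normalized counts of MYC, MYCN and MYCL in each of the 9 libraries (points), with the mean and SD of each group (bars). The VPA libraries of MYC, 431 to 534, stand above the vehicle libraries, 176 to 281, while MYCL overlaps between the groups.

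The box C/D snoRNP carries the methyltransferase fibrillarin (FBL) on the scaffold proteins NOP56 and NOP58, and methylates rRNA. FBL was at 2165, 1951 and 1800.3 normalized counts with vehicle, at 2602, 2572 and 2492 with VPA, and at 2123, 2289 and 2059 with VPA+Rapamycin. The VPA libraries were above all others, and vehicle and VPA+Rapamycin overlapped. FBL was higher with VPA, by 0.36 ± 0.10 (log2, edgeR adjusted p = 0.0186), and its estimate with VPA+Rapamycin against VPA was -0.24 ± 0.07 (adjusted p = 0.0515). The call with VPA was lost without any 1 of the VPA libraries and without vehicle replicate 2. The scaffolds NOP56 and NOP58 were not called, with estimates of 0.18 and 0.25 with VPA.

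The box H/ACA snoRNP converts uridine to pseudouridine through the enzyme dyskerin (DKC1), helped by GAR1, NHP2 and NOP10. NOP10, its smallest protein, was at 505, 408 and 419 normalized counts with vehicle, at 655, 772 and 664 with VPA, and at 695, 685 and 772 with VPA+Rapamycin. Both groups that received VPA were above vehicle and overlapped each other. The log2 fold change against vehicle was 0.64 ± 0.13 with VPA (edgeR adjusted p = 0.00419) and 0.68 ± 0.13 with VPA+Rapamycin (adjusted p = 0.00613). NHP2 was also higher with VPA (0.68 ± 0.24, adjusted p = 0.0491), from 403, 269 and 174 normalized counts with vehicle to 454, 415 and 495. The vehicle libraries spread widely here, and the call was lost without any 1 of the VPA libraries and without vehicle replicate 2. NHP2 shares 27.4% of its exon bases with RMND5B on the other strand, which had more normalized counts (mean 937 against 392, not scaled by length). DKC1, the enzyme, was not called, at 917 to 1214 normalized counts with vehicle and 1133 in each VPA library, and GAR1 was not called either. The ratio of NOP10 to DKC1 normalized counts was 0.374 to 0.457 with vehicle, 0.578 to 0.682 with VPA and 0.643 to 0.757 with VPA+Rapamycin. It was chosen after the values were seen and is given without a test.

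RNA polymerase I and its regulators transcribe the precursor rRNA, and 4 of the 8 were higher with VPA. UBTF, which shapes the active rRNA gene and bends its DNA, was at 1113, 1236 and 942 normalized counts with vehicle, at 1450.3, 1584 and 1545 with VPA, and at 1536, 1400.2 and 1429 with VPA+Rapamycin. Both VPA groups stood above vehicle. UBTF was higher against vehicle with VPA (0.47 ± 0.12, edgeR adjusted p = 0.0121) and with VPA+Rapamycin (0.40 ± 0.12, adjusted p = 0.0417). The second call was lost without vehicle replicate 2, without vehicle replicate 3 or without any 1 of the VPA+Rapamycin libraries, and the first without VPA replicate 2 or VPA replicate 3.

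NOLC1, a nucleolar phosphoprotein that brings snoRNPs and polymerase I together, was at 1942, 2142 and 2032 normalized counts with vehicle, at 2649, 2790.0 and 2685 with VPA, and at 2670.0, 2464 and 2372 with VPA+Rapamycin. It was higher with VPA by 0.40 ± 0.10 (log2, edgeR adjusted p = 0.0088), a call lost without VPA replicate 2. The other 2 called members of the group were POLR1A, the largest subunit of the polymerase (0.45 ± 0.13), and TCOF1, the treacle protein of the rRNA gene (0.53 ± 0.17), whose vehicle libraries ranged from 793 to 1394 normalized counts. POLR1B, POLR1C, MYBBP1A and RRN3, the factor that recruits the polymerase, were not called, and RRN3 had the lowest estimate of the group, -0.19. In the comparison of VPA+Rapamycin with VPA, all 8 estimates lay between -0.11 and 0.01, and none was called by edgeR.

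The nucleolar chaperones hold the most abundant members. Per kb, NPM1 was at 238 ± 14.0 CPM with vehicle, and NCL at 92.3 ± 4.23. These 2 genes gave 44.1% to 50.3% of the counts of all nucleolar members in each library. NPM3, a small relative of NPM1, was at 235, 185 and 162 normalized counts with vehicle, at 407, 351 and 392 with VPA, and at 298, 308 and 259 with VPA+Rapamycin. The 3 groups did not overlap, with VPA+Rapamycin between the other two. NPM3 was higher with VPA (0.97 ± 0.17, edgeR adjusted p = 0.00149, a fold of 1.96), lower with VPA+Rapamycin than with VPA (-0.41 ± 0.12, adjusted p = 0.0453) and higher with VPA+Rapamycin than with vehicle (0.56 ± 0.18, adjusted p = 0.0465). It was the one member called lower when Rapamycin was added, and that call was lost in 7 of 14 alternatives, among them leaving out any VPA library, VPA+Rapamycin replicate 1 or VPA+Rapamycin replicate 3, and the replicate block (adjusted p = 0.0508).

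NCL, which binds the precursor rRNA, was at 10628, 11018 and 10056 normalized counts with vehicle, at 12507, 13317 and 12264 with VPA, and at 11437, 10502 and 10470.4 with VPA+Rapamycin. Its estimate was 0.25 ± 0.09 with VPA against vehicle (edgeR adjusted p = 0.0472), a call lost in 8 of 14 alternatives, among them the replicate block (adjusted p = 0.0999), and -0.23 ± 0.07 with VPA+Rapamycin against VPA (adjusted p = 0.0596). The VPA and VPA+Rapamycin libraries did not overlap. NPM1 was not called, with a log2 fold change of 0.05 with VPA, and at 13232 to 13998 normalized counts with VPA+Rapamycin it lay below the VPA libraries, at 14512 to 16917. The annotation lists 45 NPM1 pseudogenes by name, whose near-identical copies can share reads with it.

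The small subunit processome cuts and folds the 18S part of the precursor, and 3 of its 8 measured members were higher with VPA. UTP20, a large scaffold of the particle, was at 580.5, 678 and 692 normalized counts with vehicle, at 887, 958 and 829 with VPA, and at 930.3, 633 and 857 with VPA+Rapamycin. The VPA libraries stood above vehicle, while VPA+Rapamycin replicate 2 lay among the vehicle values. UTP20 was higher with VPA by 0.44 ± 0.12 (edgeR adjusted p = 0.0172), a call lost without VPA replicate 1 or VPA replicate 2. RRP9, a component of the U3 snoRNP (0.59 ± 0.20), and NOP14 (0.45 ± 0.14) were also higher. HEATR1, UTP4, WDR43, RRP12 and BYSL were not called, at -0.01 to 0.32, and the estimates of HEATR1 in the 3 comparisons were -0.01, 0.04 and 0.03.

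The 11 members of large subunit assembly included the sole decrease. BOP1, PES1 and WDR12 form a complex that is required to process the 28S precursor. BOP1 was at 601, 518 and 467 normalized counts with vehicle, at 786, 942 and 1074 with VPA, and at 922, 994 and 747 with VPA+Rapamycin. The vehicle libraries lay below all others. BOP1 was higher against vehicle with VPA (0.81 ± 0.15, edgeR adjusted p = 0.00192) and with VPA+Rapamycin (0.74 ± 0.15, adjusted p = 0.00675), and stayed called in each of the 14 alternatives of both comparisons. PES1 was at 849, 792 and 632 with vehicle, at 1065, 1027 and 1089 with VPA, and at 924, 972 and 885 with VPA+Rapamycin, and was higher with VPA (0.47 ± 0.13, adjusted p = 0.0152), a call lost without any 1 of the VPA libraries. WDR12, the third subunit, was not called (0.10 ± 0.11 with VPA). RRS1, which loads the 5S RNP, was at 222, 137 and 136 normalized counts with vehicle, at 280.2, 315 and 319 with VPA, and at 242, 312 and 269 with VPA+Rapamycin. It was higher with VPA (0.87 ± 0.20, adjusted p = 0.00766) and with VPA+Rapamycin (0.72 ± 0.21, adjusted p = 0.0386) than with vehicle, with no overlap.

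GNL3, the nucleolar GTPase nucleostemin of stem and progenitor cells, was at 1692, 1689 and 1673 normalized counts with vehicle, at 1279.6, 1275 and 1074 with VPA, and at 1017, 1170.3 and 1099 with VPA+Rapamycin. The vehicle libraries lay close together and above all others. GNL3 was lower than vehicle with VPA (log2 fold change -0.49 ± 0.11, edgeR adjusted p = 0.00566) and with VPA+Rapamycin (-0.63 ± 0.10, adjusted p = 0.00308), and remained called in every alternative of both comparisons. With VPA+Rapamycin against VPA the estimate was -0.14 ± 0.09. Of the 7 members whose genes hold snoRNAs, 25 in the annotation, GNL3 holds 6, the most of any member. DDX21, an RNA helicase, was higher with VPA (0.41 ± 0.13). NOP16, WDR74 and NIP7 were not called.

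NOP2 and PPAN had values too low for a firm reading. NOP2, an rRNA methyltransferase of large subunit assembly, was at 7.29 to 19.7 normalized counts in all libraries, and 54.4% of its exon bases lie in another gene of the same strand. PPAN was at 10.2 to 54.4, shares 56.0% of its exon bases with the readthrough gene PPAN-P2RY11, and had the highest estimate of all members with VPA, 1.21 ± 0.40 (edgeR adjusted p = 0.0383), a call lost in 6 of 14 alternatives, among them the replicate block (adjusted p = 0.0557). In all, 10 of the 40 members share exon bases with another gene of the same strand, and 23 with a gene of either strand. The strand setting of the counting is not given in the sources used here, so reads from such bases cannot be assigned with certainty.

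**Figure D3:**
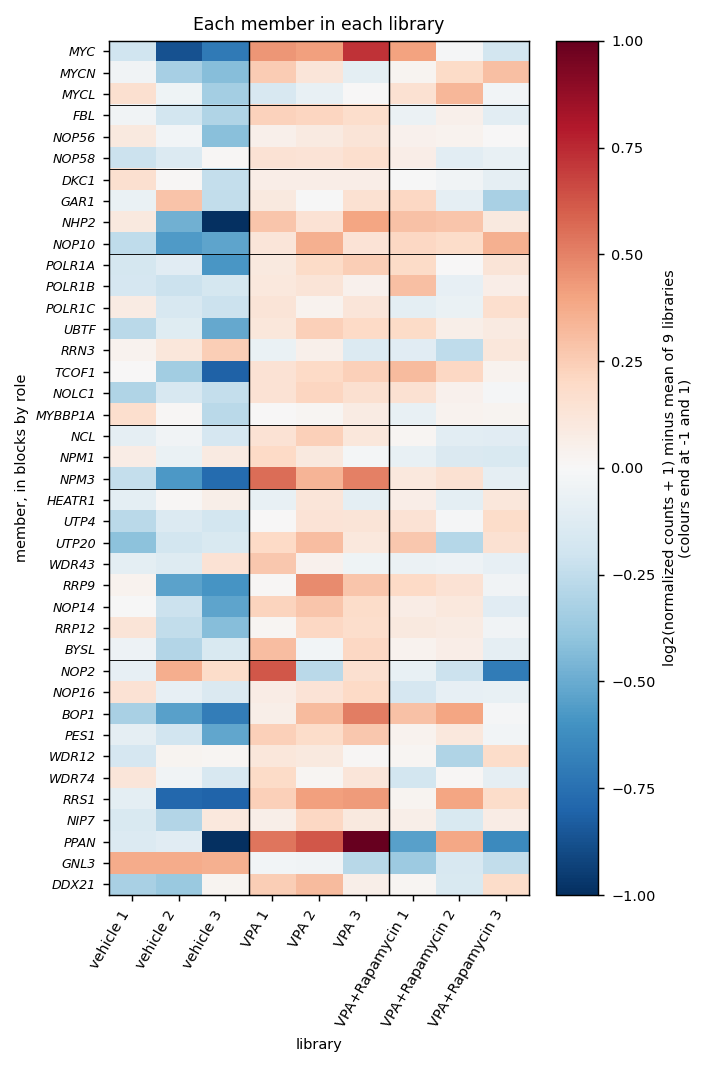
Log2(normalized counts + 1) of each member in each library, minus the mean of its 9 libraries; blocks are roles, and the colours end at -1 and 1. The VPA libraries are mostly above the mean, vehicle replicate 3 is the lowest of all 9 libraries for 20 members, and GNL3 runs the other way from most members.

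Summed over the 37 nucleolar members, the level was 3271, 3144 and 3099.9 CPM in the vehicle libraries, 3736, 3779.7 and 3580.3 with VPA, and 3419.7, 3233 and 3257 with VPA+Rapamycin. The VPA libraries stood above all others, and vehicle and VPA+Rapamycin overlapped. The mean was 16.6% above vehicle with VPA (exact two-sided permutation test over libraries, p = 0.1, the smallest p that 3 against 3 can give), and with VPA+Rapamycin it was -10.7% relative to VPA (exact permutation p = 0.1) and 4.15% relative to vehicle (exact permutation p = 0.3). Without TMM factors the last was 7.75%, with no overlap (exact permutation p = 0.1). Across the 6 nucleolar roles the change with VPA ranged from 11.5% for the chaperones to 25.0% for RNA polymerase I and its regulators.

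Summed levels of several other lists differed between the groups too. The 18 cell cycle genes summed to 3136 to 3818 CPM with vehicle, 3902.5 to 4119 with VPA and 3289 to 3743 with VPA+Rapamycin. Of the 18, 3 were higher with VPA (16.7%, against 16.4% of all genes tested). With VPA+Rapamycin against VPA, 7 were lower (38.9%, against 3.73% of all genes tested). Neuron markers, 6 genes, summed to 897, 1177 and 1522 CPM with vehicle and to 720.3 to 820.2 in the other libraries, and were highest in vehicle replicate 3, which was the lowest vehicle library for 24 of the 40 members. Mesenchymal markers summed to 148 to 313 CPM with vehicle, 576 to 732 with VPA and 256 to 381 with VPA+Rapamycin. This sum was carried by the collagens COL1A1 and COL1A2, the only 2 of 7 tested markers that were higher with VPA, while COL3A1 and PRRX1 had negative estimates. The mean log2 level of the list, in which each gene counts equally, was 2.24, 1.87 and 3.95 in vehicle replicates 1, 2 and 3. It was 3.15 to 3.79 with VPA, above vehicle replicates 1 and 2 and below vehicle replicate 3. With VPA+Rapamycin against VPA, 6 of the 7 tested mesenchymal markers were lower (85.7%, against 3.73% of all genes tested). Neural progenitor markers summed to 1835 to 2102 CPM with vehicle, 2226 to 2435 with VPA and 1912 to 2087 with VPA+Rapamycin. HES5, a NOTCH target, was the only 1 of these 6 markers higher with VPA (0.95), and the median of the list was 0.02. The sums of the 6 neural crest markers overlapped between the groups. Of the 6, 4 were lower (66.7%, against 15.7% of all genes tested) and 1 was higher with VPA, with a median log2 fold change of -1.83. With VPA+Rapamycin against VPA, 2 of them were higher (33.3%, against 3.01% of all genes tested). Among 1093 protein-coding genes under 2000 bases the median log2 fold change with VPA was 0.24 and 24.4% were higher, against 18.4% of longer protein-coding genes. The 5 members of that length (NHP2, NOP10, NPM3, RRP9 and RRS1) were all called higher, while 13 of the 35 longer members were. The part of cell cycle, cell type and gene length in the members' changes was not tested. Without vehicle replicate 3, 17 members were higher with VPA and 1 was lower, against 3326 and 3150 of all 17880 genes tested.

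**Figure D4:**
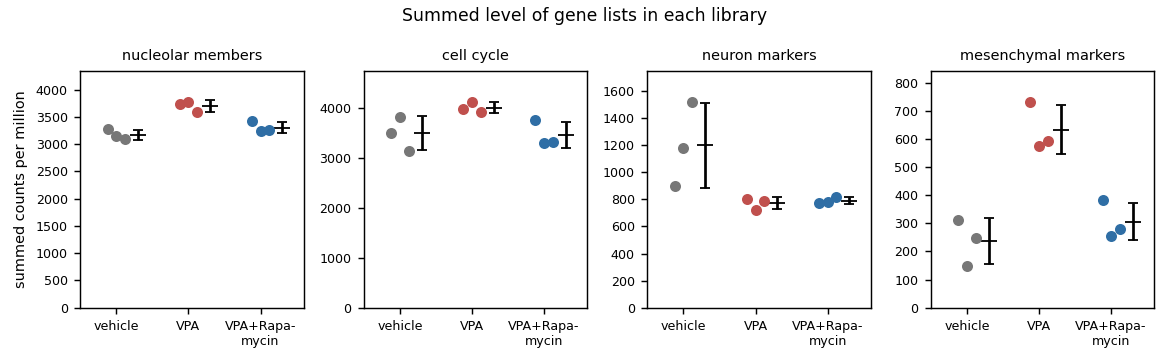
Summed CPM of the 37 nucleolar members and of 3 other gene lists in each library (points), with the mean and SD of each group (bars). Nucleolar and cell cycle genes are highest in the 3 VPA libraries, neuron markers span 897 to 1522 with vehicle and 720.3 to 820.2 elsewhere, and the sum of the mesenchymal markers, carried by 2 collagens, is highest with VPA.

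The rest of the pathway gave mixed counts. Of 83 other ribosome assembly factors, 19 (22.9%) were higher with VPA, against 18.9% of all protein-coding genes. Those with the smallest adjusted p were WDR46 (0.98 ± 0.13), EBNA1BP2 (0.69 ± 0.12) and RRP15 (0.58 ± 0.12). The 4 that were lower were 4.82% of the list, against 15.7% of all protein-coding genes. They included the helicases DDX55 (-0.60 ± 0.11) and DDX47 (-1.44 ± 0.33) and KRR1 (-0.54 ± 0.13), and the median of the list was 0.20. When Rapamycin was added to VPA, DDX10 (-0.49 ± 0.12) and DDX54 (-0.32 ± 0.09) of this list were lower and 0 were higher by edgeR. The share lower was 2.41%, against 4.45% of all protein-coding genes. Of 31 subunits of RNA polymerases I and III and TBP factors, 5 (16.1%) were higher with VPA, among them POLR3B (0.88 ± 0.14). Another 3 (9.68%, against 15.7% of all protein-coding genes) were lower, among them TAF1D of the polymerase I selectivity factor (-1.02 ± 0.16). The median of this list was -0.05. POLR3G, higher with VPA (0.91 ± 0.24), was the one gene of this list lower with VPA+Rapamycin than with VPA (3.23% of the list, against 4.45% of all protein-coding genes).

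In the MYC network, 3 of 19 genes (15.8%) were higher with VPA and 5 (26.3%) were lower, against 18.9% and 15.7% of all protein-coding genes. The AAA+ ATPases RUVBL1 (0.82 ± 0.12) and RUVBL2 (0.53 ± 0.15) were higher, as was MLXIPL (2.14 ± 0.40), while the MYC antagonists MXI1 (-0.87 ± 0.15) and MXD1 (-0.95 ± 0.19), and the kinase PIM1 (-0.54 ± 0.14), were lower. Of 17 MYC targets outside the nucleolus, 9 (52.9%) were higher with VPA, among them ODC1 of polyamine synthesis (0.79 ± 0.11), PHB (0.68 ± 0.11) and NME1 (0.73 ± 0.15), and CCND2 was lower (-0.91 ± 0.12). With VPA+Rapamycin against VPA, 4 of these targets (23.5%) were lower, against 4.45% of all protein-coding genes. Among them were HSPD1 (-0.26 ± 0.07), LDHA (-0.40 ± 0.11) and CDK4 (-0.34 ± 0.09).

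Of 15 genes of the RNA exosome and rRNA decay, XRN2 (0.34 ± 0.10) and EXOSC4 (0.62 ± 0.18) were higher with VPA. That share was 13.3%, against 18.9% of all protein-coding genes. Of 10 genes of nucleolar stress and the 5S RNP, RRS1 and CDKN2A (2.18 ± 0.76) were higher with VPA (20%) and 4 were lower (40%). Of all protein-coding genes, 18.9% were higher and 15.7% were lower. The lower genes of the list included CDKN1A (-0.75 ± 0.13), SESN1 (-0.68 ± 0.13) and MDM2 (-0.54 ± 0.14), which are p53 targets. CDKN1A was lower again with VPA+Rapamycin than with VPA (-0.61 ± 0.13), and was lower with VPA+Rapamycin than with vehicle (-1.37 ± 0.16).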

How the data were processed

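The authors purified poly-A RNA and, per the submitters' processing notes, used HISAT2 2.0.5 and featureCounts 1.5.0-p3. Raw read counts per gene were deposited, 1 table a pair of groups. The gene coordinates and lengths equal GENCODE v29 on GRCh38. The authors' own fold changes, p-values, normalized counts and FPKM in the tables were not used.

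Each pair was fitted within its own table in R 4.3.3 with edgeR 4.0.16 (TMM, filterByExpr defaults, quasi-likelihood F test, no replicate block). SE is the absolute log2 fold change over the square root of F. Levels used TMM over the 26871 genes in all tables. In simulated data of 17008 genes for VPA against vehicle, 77.0% of 196 changed genes were recovered and 10.7% of calls were false. The changed genes were simulated with log2 fold changes of at least 1 in either direction. Changes as small as the median of the members, 0.28, were not simulated, so their recovery was not tested. Members and lists were chosen with earlier results of these data known. Per-library values are given for the MYC family and the called members, up to 10 a comparison by adjusted p, and for NCL and NHP2 in addition, chosen after their values were seen. Replicates differed by more than sampling noise (chi-square per gene 4.52 to 35.0). Exon overlap came from GENCODE v29. Alternatives were DESeq2 1.42.0, its size factors, upper-quartile normalization, other filters, all 9 libraries in 1 fit, the replicate block, protein-coding genes alone, each library left out, and levels without TMM.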

Additional observations from a re-analysis of the deposited data

How the results depend on the processing

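Members called higher with VPA numbered 15 to 20 under the 8 alternatives that keep every library, and 5 to 20 with 1 library left out. All genes called higher numbered 2465 to 3266 and 1791 to 3480 in the same fits. With VPA+Rapamycin against VPA, the count of members lower was 4 with DESeq2, 5 without a filter, 2 with at least 10 counts in every library, 0 with all 9 libraries in 1 fit, and 0 to 2 with 1 library left out. In the same order 691, 923, 674, 69 and 297 to 670 of all genes were lower. With VPA+Rapamycin against vehicle, the count of members higher was 12 with all 9 libraries in 1 fit and 2 to 11 with 1 library left out. In these fits 2343 and 761 to 2204 of all genes were higher. The replicate block gave 16 higher and 1 lower with VPA, 1 lower with VPA+Rapamycin against VPA, and 10 higher with VPA+Rapamycin against vehicle. For all genes these counts were 2598, 2367, 705 and 2104 in the same order. The study used 3 clones, and same-numbered libraries of the 3 groups share a code in the labels, which tie no code to a clone. Whether these libraries are matched by clone is therefore not known. Their deviations correlated by -0.097 to 0.209, and the main fits did not take the numbers as a pairing. The replicate block is the fit that does. Without TMM the summed nucleolar level was 19.2% above vehicle with VPA and 7.75% above it with VPA+Rapamycin, and no called result changed direction in any alternative. The causes of these shifts were not tested. With 3 libraries a group, small changes of single members cannot be settled.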
